A study of Gossypium hirsutum with 6 samples.

Results

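Gene expression in elongating cotton fibers at 14 days post anthesis (DPA, days after the flower opened) was set against gene expression in young leaves. Both tissues came from Gossypium hirsutum acc. TM-1, an allotetraploid cotton that carries an A and a D subgenome, with 2 biological replicates per tissue. The study also held 2 libraries from ovules at 0 DPA, which shared in the estimate of the spread in the model below and are otherwise given as a further readout. All plants were untreated and of the same accession, leaves and bolls were taken from greenhouse plants, and fibers were dissected from the bolls. How many plants went into a sample is not given in the sources used here. Expression was read as FPKM, a fragment count per model, divided by its length and by the mapped fragments of the library. Gene models with a mean of at least 0.5 FPKM over the 4 fiber and leaf libraries were kept, which gave 39926 of 77357 models. These were 19520 of 40134 models with the prefix Cotton_A, called A-genome models here, and 20406 of 37223 models with the prefix Gorai, called D-genome models. This naming rests on nothing but the prefix. Among the 37431 models left out, 25062 were at 0 in all 4 libraries and 12369 were above 0 in at least 1. The limit ran through a continuous range of levels, with 578 models between 0.5 and 0.55 FPKM just inside it and 642 between 0.45 and 0.5 FPKM just outside.

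A cotton fiber is a single epidermal cell of the ovule that elongates without dividing and later lays down a thick secondary wall of nearly pure cellulose. During elongation it is known for high expression of genes for cell wall loosening, the cytoskeleton, wall polysaccharides and surface lipids. A leaf is a mixture of cell types dominated by mesophyll, whose most abundant transcripts are usually those of photosynthesis. None of the identifiers in the table was found in the species' RefSeq gene table, so models are described by identifier, level, rank, prefix and chromosome number, and the labels could not be checked against markers of fiber or leaf. In bulk samples such as these, fewer cells of a type and less RNA per cell cannot be told apart.

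The libraries grouped by tissue. Over the 39926 models, Pearson's r on the log2(FPKM + 1) scale was 0.985 between the fiber replicates and 0.977 between the leaf replicates, and lay between 0.378 and 0.390 for a fiber library and a leaf library. The median SD between replicates was 0.08 in fiber and 0.10 in leaf on that scale. The table holds no read totals. Whole-number ratios between its values placed the depth of fiber replicate 2 at 0.964 and of the leaf libraries at 0.704 and 0.728 of that of fiber replicate 1. For the median model with recovered reads, 1 read was worth 0.0831 and 0.0862 FPKM in the fiber libraries and 0.118 and 0.114 FPKM in the leaf libraries. Of the tested models, 1032 were known to be worth over 1 FPKM per read, 953 of them A-genome and 79 D-genome models. A given FPKM in these rests on fewer reads than in other models with recovered reads. Reads were recovered for 26052 of the tested models, and for the rest the worth of a read is unknown.

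More of the tested models were called between fiber and leaf than were not. At over 2-fold and a p under 0.01 from limma, after Benjamini-Hochberg adjustment, 10933 models were higher in fiber (27.4% of those tested) and 10934 were lower (27.4%). A further 18059 models (45.2%) were not called. Each called model had both libraries of its higher tissue above both of the other, which was also true of 47.1% of all tested models for fiber above leaf and of 43.0% for fiber below leaf. The balance of the 2-fold calls depended on scaling. There were 12096 higher and 10317 lower after quantile normalization, against 10106 and 12125 after median-of-ratios scaling, while the median change over all tested models moved from 0.08 as deposited to 0.20 and -0.06.

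Large changes were more often losses than gains in fiber. Past 5-fold, 3550 models were higher (8.89%) and 4822 were lower (12.1%). Past 10-fold the counts were 1443 and 2581, and past 50-fold they were 208 and 618. These counts depend on the pseudocount, and with 0.1 in place of 1 they were 3523 and 6202 past 10-fold and 865 and 2004 past 50-fold. The number lower for each model higher thus went from parity at 2-fold to 1.36 at 5-fold, 1.79 at 10-fold and 2.97 at 50-fold. This order did not turn under scaling. Past 10-fold, quantile normalization gave 1527 higher and 2575 lower, median-of-ratios scaling gave 1400 and 3041, and scaling on all models except the 100 highest gave 1456 and 2686.

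The called models made up most of the mRNA signal in each tissue. Models called higher in fiber held 72.0% ± 0.463 of summed FPKM in fiber (SD, n = 2) and 9.08% ± 0.145 in leaf. Models called lower held 3.60% ± 0.0112 in fiber and 70.3% ± 0.216 in leaf. The models past 5-fold alone held 49.7% ± 0.0461 of fiber FPKM on the higher side and 62.2% ± 0.0836 of leaf FPKM on the lower side. As the calls came from these same libraries, the direction of these fiber and leaf differences follows from the choice. In ovules, whose levels took no part in the contrast but whose spread entered the fit, the models higher in fiber held 28.7% ± 0.251, those lower held 27.2% ± 0.456 and those not called held 41.6% ± 0.0674. Models not called between fiber and leaf held 24.2% ± 0.454 of fiber's FPKM and 20.4% ± 0.356 of leaf's. Calling takes out models that are high in fiber or in leaf. That their share was larger in ovule thus also follows in part from the choice.

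Calls depended on expression level. Tested models were divided by their mean FPKM over the 4 libraries into 4868 models from 0.5 to 1, 16023 from 1 to 5, 12009 from 5 to 20, 5563 from 20 to 100 and 1463 at 100 or more. The share called higher was 12.3% in the lowest class, then 22.4%, 32.3% and 39.6%, and 45.0% in the highest class. The share called lower was 20.9%, 27.4%, 28.7%, 27.8% and 35.7% in the same order. Among these 2-fold calls, models lower in fiber were the majority below 5 FPKM and models higher in fiber the majority above it. Past 5-fold the order was the other way in the upper classes too, with 12.7% higher and 17.4% lower from 5 to 20 FPKM, 18.6% and 20.4% from 20 to 100, and 28.2% and 31.6% at 100 or more. The median change followed, from -0.12 in the lowest class to 0.76 in the highest. Replicates were also tighter at high levels, with a median SD of 0.08 in fiber and 0.12 in leaf in the lowest class against 0.05 in both tissues in the highest, and the pseudocount of 1 limits how far a model of the lowest class can move. Scaling moved the level at which the majority changed. With quantile normalization higher calls were the majority in every class, and with median-of-ratios scaling only from 20 FPKM upward, since the class from 5 to 20 FPKM then had 29.2% higher and 31.5% lower. With quantile normalization the lowest class had 22.5% higher and 15.0% lower, while the highest class had 43.6% higher and 36.1% lower, and under median-of-ratios scaling these were 13.1% and 26.0%, and 42.9% and 36.5%.

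**Figure D1:**
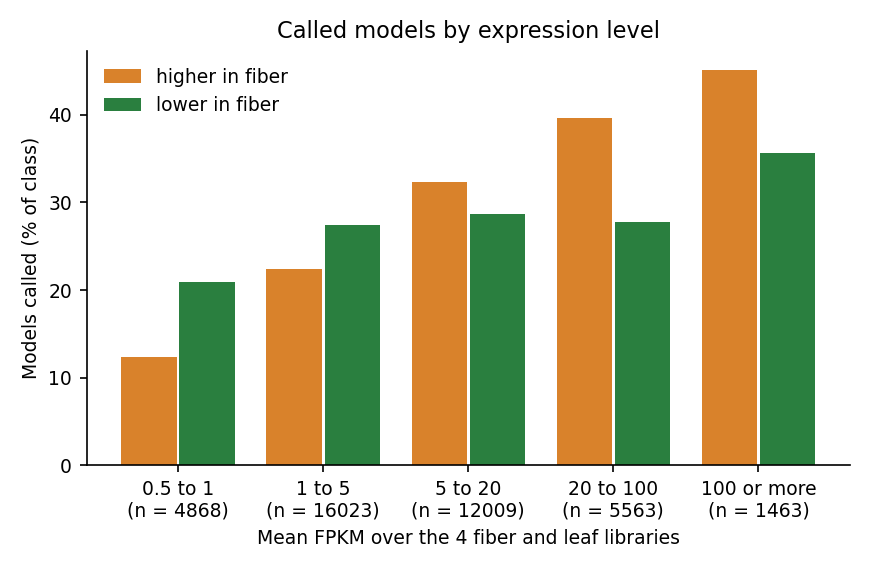
Share of tested models called higher (orange) and lower (green) in fiber than in leaf, as percent of each class on the y axis, by mean FPKM over the 4 fiber and leaf libraries on the x axis with the number of models in each class. The orange bars climb from 12.3% to 45.0% and pass the green bars from 5 FPKM upward, a crossing that moves to 20 FPKM under median-of-ratios scaling and is absent under quantile normalization.

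Single models reached very large differences. Cotton_A_39373 was the highest model of fiber, where it read 30253 and 28315 FPKM, compared with 817 and 836 in leaf and 357 and 303 in ovule. Fiber lay far above both other tissues, with ovule below leaf. The ratio of the fiber mean to the leaf mean was 35.4, and the change was 5.14 ± 0.08 on the log2(FPKM + 1) scale (SE, limma, adjusted p = 1.41e-07). It was still the model of rank 132 in leaf. Gorai.011G128500, a D-genome model whose identifier places it on chromosome 11, was of rank 6 in fiber, at 8622 and 8664 FPKM against 14.8 and 8.86 in leaf and 155 and 126 in ovule. Its fiber and leaf means differed 732-fold (log2 change 9.44 ± 0.24, SE, adjusted p = 2.89e-06 by limma). Ovule lay between the other tissues. In leaf it ranked 9557.

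The highest leaf models showed the opposite pattern. Cotton_A_22555, the highest model of leaf, was at 48155 and 47148 FPKM in leaf, 91.3 and 40.1 in fiber and 512 and 593 in ovule. The leaf mean was 725-fold the fiber mean, a change of -9.60 ± 0.38 (SE, limma, adjusted p = 1.35e-05). Gorai.001G201800, a D-genome model with chromosome 1 in its identifier and of rank 3 in leaf, was at 10339 and 10928 FPKM in leaf, 15.9 and 6.78 in fiber and 123 and 136 in ovule. The difference was 939-fold, or -9.86 ± 0.37 (SE, limma, adjusted p = 1.03e-05). In both leaf models ovule lay between leaf and fiber, and fiber replicate 1 read more than 2-fold above fiber replicate 2. Reads could not be recovered for these 4 models, so their counting error is unknown.

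**Figure D2:**
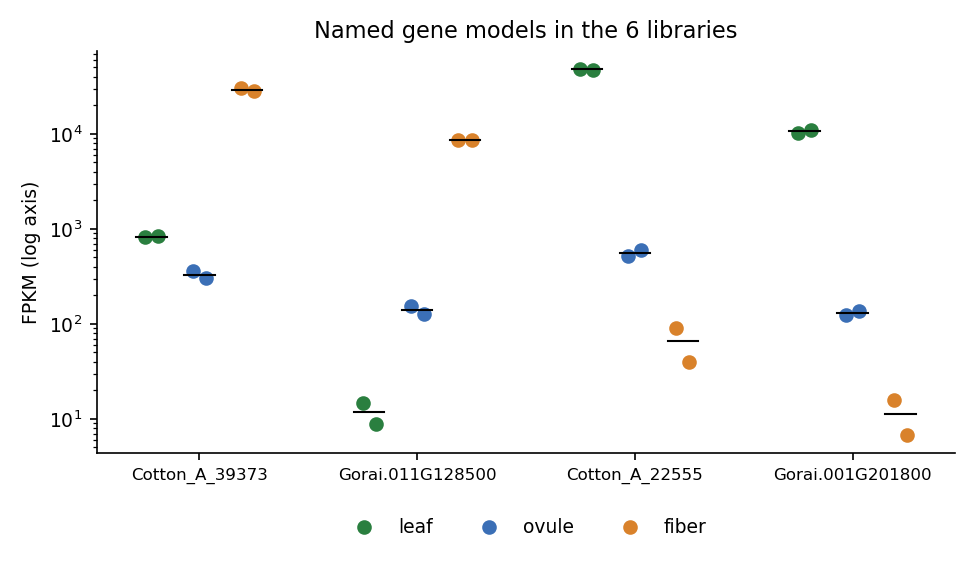
FPKM on a log axis of the 4 named models in each leaf (green), ovule (blue) and fiber (orange) library, with a black line at the mean of 2 libraries. Fiber is the highest tissue for Cotton_A_39373 and Gorai.011G128500 and the lowest for Cotton_A_22555 and Gorai.001G201800, where the fiber replicates stand apart (91.3 and 40.1 FPKM, and 15.9 and 6.78 FPKM).

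The most abundant models were replaced almost entirely between the tissues. None of the 10 or 20 highest models was shared by fiber and leaf, 4 of the 50 highest were, 7 of the 100 highest, 75 of the 500 highest, 244 of the 1000 highest and 2169 of the 5000 highest. Replicates of 1 tissue shared far more, with 93 of the 100 highest in fiber and 96 in leaf. Of the 100 highest models, fiber shared 23 with ovule and leaf shared 9 with ovule. The 100 highest of fiber were 63 A-genome and 37 D-genome models, and 83 of them were called higher in fiber, 72 past 5-fold, with 17 not called. The 100 highest of leaf were 70 A-genome and 30 D-genome models, of which 93 were called lower in fiber, 91 past 5-fold, 1 was called higher and 6 were not called. Having been chosen for their high level in 1 tissue, these models were more likely than others to be called in its direction.

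**Figure D3:**
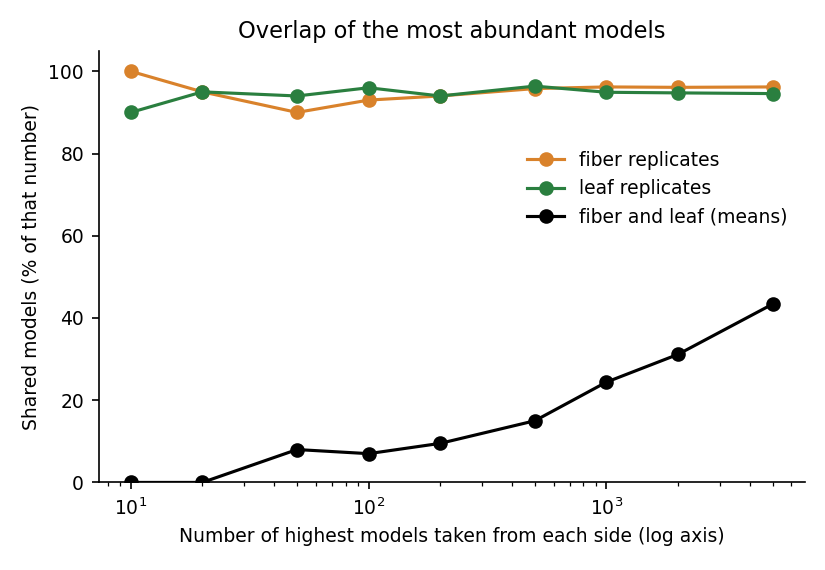
Share of the highest models common to fiber and leaf (black, tissue means), to the fiber replicates (orange) and to the leaf replicates (green), as percent on the y axis, for 10 to 5000 highest models on a log x axis. Replicates share at least 90.0% at every size, whereas fiber and leaf share 0 of the 10 highest and 7 of the 100 highest.

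The 10 highest models of fiber were 7 A-genome and 3 D-genome models. After Cotton_A_39373, the model of rank 3, an A-genome model, was at 14815 and 14764 FPKM in fiber against 106 and 89.9 in leaf. The A-genome model of rank 5 was at 10269 and 10636 against 29.9 and 28.8. The D-genome model of rank 8 was at 8047 and 8300 against 39.1 and 29.2. Each of these was called past 5-fold, with no overlap between the tissues and fiber libraries close to each other. The models of rank 2, 4 and 10 were all worth over 1 FPKM per read, and 2 of them differed strongly between fiber replicates, at 22427 and 11685 FPKM for rank 2 and at 14697 and 7777 for rank 4. The model of rank 9, a D-genome model, was the only one of these 10 that also stood among the 100 highest of leaf, at 7447 and 7464 FPKM in fiber and 1488 and 1484 in leaf (2.33 ± 0.03 on the log2 scale, SE, limma, adjusted p = 1.10e-07).

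The 7 models among the 100 highest of both tissues were 5 A-genome and 2 D-genome models. The rank 9 model just described was the one called higher, and the other 6 were not called. Their changes ran from -0.73 to 0.11 on the log2 scale. The steadiest was a D-genome model at 1855 and 1802 FPKM in fiber and 1733 and 1760 in leaf (0.07 ± 0.03, SE, limma, adjusted p = 0.117). An A-genome model at 1621 and 1577 in fiber and 2639 and 2652 in leaf passed the p threshold but not the fold (-0.73 ± 0.05, SE, limma, adjusted p = 3.54e-05). The 7 were chosen after their values were seen and are described, not tested as a group.

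The replacement was uneven in depth. The 100 highest models of fiber had a median of 69.1 FPKM in leaf, 43 of them were at 100 FPKM or more there, and 3 were under 1. The 100 highest of leaf had a median of 4.25 FPKM in fiber, with 13 at 100 FPKM or more and 3 under 1. Read in single libraries, the 100 highest models of fiber replicate 1 had median ranks of 1963 and 1834 in the leaf libraries, whereas the 100 highest of leaf replicate 1 had median ranks of 15161 and 19375 in the fiber libraries. In ovule, the fiber models had a median of 183 FPKM and the leaf models one of 47.1 FPKM. The median of 4.25 FPKM was near the fiber median of 3.38 FPKM over all tested models, whereas 69.1 FPKM was far above the leaf median of 3.73 FPKM.

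The remnant of leaf's highest models in fiber was of a narrow range. Leaving out the model of rank 5, which is worth over 1 FPKM per read, the 9 others of leaf's 10 highest stood at 0.147% to 0.192% of their leaf mean in fiber replicate 1 and at 0.0638% to 0.129% in fiber replicate 2. In the ovule libraries they stood at 0.929% to 1.37% and 0.965% to 1.40%. By contrast, the 7 of fiber's 10 highest that were not known to be worth over 1 FPKM per read were spread from 0.103% to 19.9% of their fiber mean in leaf replicate 2. Among leaf's 100 highest, 98 were above 0 in both fiber libraries and 56 of these read over 1.5-fold higher in fiber replicate 1 than in replicate 2, against 2 that read as much lower. Their median ratio between the fiber replicates was 1.68, compared with 0.995 over all tested models in fiber, 0.975 for the same models in leaf and 0.967 for them in ovule. The level of leaf's highest models in fiber thus differed between the fiber libraries more than tested models did in general. Whether RNA of another tissue or reads of another library had a part in these levels was not tested.

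The wider range of levels gave the same picture. Of 1260 models over 100 FPKM in leaf, 350 (27.8%) were also over 100 in fiber, 302 (24.0%) lay between 10 and 100, 366 (29.0%) between 1 and 10, 213 (16.9%) above 0 and up to 1, and 29 (2.30%) were listed at 0. Thus 242 of them (19.2%) ended at 1 FPKM or below. Of 1470 models over 100 FPKM in fiber, 350 (23.8%) were over 100 in leaf, 856 (58.2%) between 10 and 100, 195 (13.3%) between 1 and 10, 54 (3.67%) above 0 and up to 1, and 15 (1.02%) were listed at 0, so that 69 (4.69%) ended at 1 FPKM or below. Between replicates, 96.7% of models over 100 FPKM in leaf replicate 1 and 94.9% of those in fiber replicate 1 stayed over 100. In each tissue 2 of these models were listed at 0 in replicate 2.

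**Figure D4:**
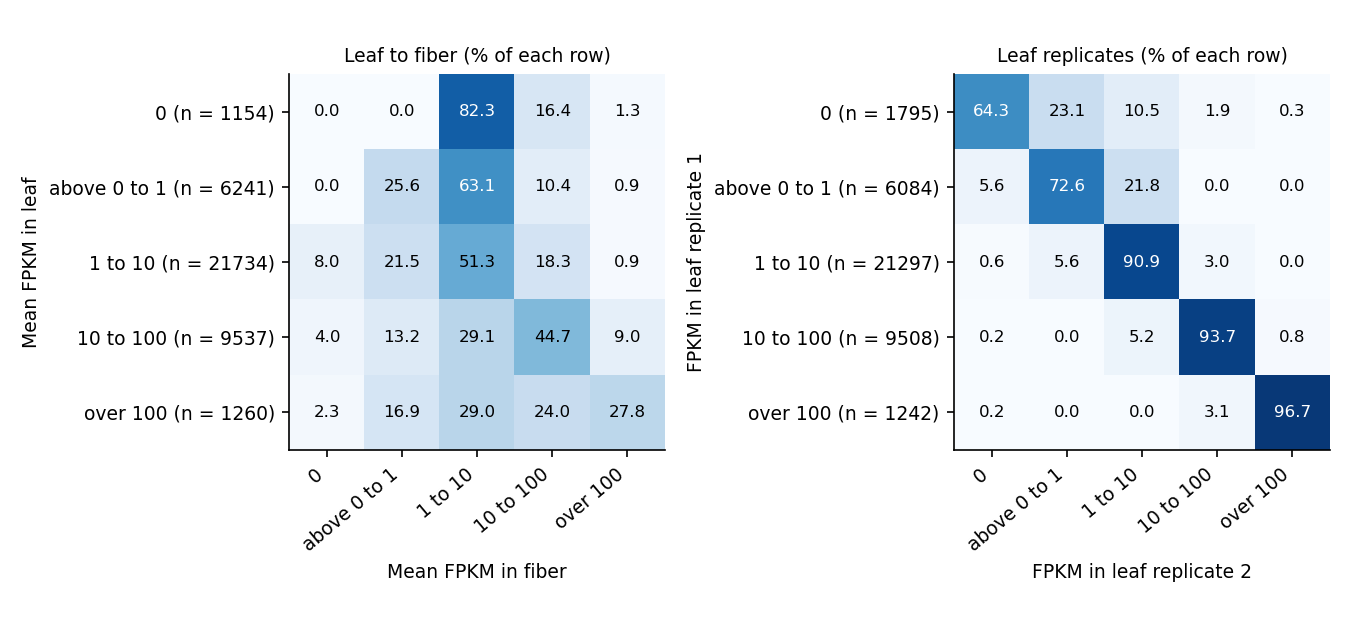
Percent of the models of each leaf level class (rows, with their number) that fall in each fiber level class (left) and, for comparison, of each class of leaf replicate 1 that fall in each class of leaf replicate 2 (right), with classes in FPKM. Replicates keep 96.7% of the models over 100 FPKM in that class and fiber keeps 27.8% of those of leaf; the 3 empty cells at the upper left of the left panel follow from the minimum of 0.5 FPKM.

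Models were called switched on in fiber where both leaf libraries were listed at 0 and both fiber libraries had at least 1 FPKM, and switched off where the tissues were exchanged. The rule found 951 models switched on, of which 559 were A-genome and 392 D-genome models, and 1790 switched off, of which 1008 were A-genome and 782 D-genome models. Most were low, with a median of 3.42 FPKM in fiber for models switched on and of 3.71 FPKM in leaf for models switched off. There were 193 models switched on and 396 switched off at 10 FPKM or more, and 14 and 28 at 100 or more. The leaf libraries were shallower than the fiber libraries, so a low transcript was more easily missed in leaf. Among the tested models, 1154 were at 0 in both leaf libraries and 2151 in both fiber libraries. Whether depth had a part in the switch counts was not tested. A value of 0 in this table may also stand for an estimate that failed, which was not tested. Of 1795 tested models at 0 in leaf replicate 1, 34 read 10 to 100 FPKM and 5 over 100 in leaf replicate 2. For 2745 at 0 in fiber replicate 1, these were 9 and 1 in fiber replicate 2.

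The highest switched models differed in their ovule levels. The highest model switched on, an A-genome model, was at 2778 and 2162 FPKM in fiber and was listed at 0 in both leaf and both ovule libraries. Of the 14 models switched on at 100 FPKM or more, 7 were worth over 1 FPKM per read, 6 were at 0 in both ovule libraries and 7 had at least 1 FPKM in both. The highest model switched off, an A-genome model at 991 and 1262 FPKM in leaf, was worth over 1 FPKM per read and was at 805 and 646 in ovule. The next that was not so marked, a D-genome model, was at 501 and 570 FPKM in leaf, 0 in both fiber libraries and 6.97 and 8.57 in ovule. Of the 28 switched off at 100 FPKM or more, 8 were worth over 1 FPKM per read.

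Switches were only partly repeated between replicates. Since the minimum of 0.5 FPKM uses all 4 libraries, this was counted over all 77357 models, a choice made after seeing the data. Of 1678 models that were on in fiber replicate 1 and at 0 in leaf replicate 1, 951 (56.7%) met the rule in the replicates numbered 2, and 123 (7.33%) reached at least 1 FPKM in leaf replicate 2. Chosen on the replicates numbered 2, 951 of 1520 (62.6%) met it in those numbered 1, and 73 (4.80%) reached at least 1 FPKM in leaf replicate 1. For models switched off, 1790 of 2608 (68.6%) met the rule again when chosen on the replicates numbered 1, and 1790 of 3036 (59.0%) when chosen on those numbered 2. Neither direction of switch was thus repeated more often in both readings. Of the models switched off, 51 (1.96%) reached at least 1 FPKM in fiber replicate 2 and 75 (2.47%) in fiber replicate 1. Reaching 1 FPKM in the tissue first read at 0 was thus more frequent for models switched on, in both readings. Reads were recovered for 525 of the models switched on, with a median of 50 reads over the fiber libraries and under 10 reads in 67 (12.8%), and for 1036 of those switched off, with a median of 43 reads and under 10 in 106 (10.2%). In ovule, 280 of the models switched on (29.4%) and 432 of those switched off (24.1%) had at least 1 FPKM in both libraries, compared with 31297 of all tested models (78.4%). Both ovule libraries were at 0 for 31.0% of the models switched on and 33.1% of those switched off, against 4.69% of all tested models.

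Ovule levels of the called models mostly lay between those of fiber and leaf. This was so for 67.2% of models higher in fiber and 63.9% of models lower, for 77.9% and 80.5% of those past 5-fold, and for 45.0% of all tested models. A wider gap between fiber and leaf leaves more room for a value in between. Ovule lay above both tissues for 26.8% of models lower in fiber and 16.8% of models higher, both below the 39.0% of all tested models. At least 1 FPKM in both ovule libraries was found for 79.1% of models higher in fiber and 70.5% of models lower, against 78.4% of all tested models.

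The summed levels were about as concentrated in fiber as in leaf at the very top and less so below it. The 10 highest models held 12.8% ± 0.992 of summed FPKM in fiber and 12.3% ± 0.134 in leaf (SD, n = 2), which is within the spread of the fiber libraries. The 100 highest held 28.9% ± 1.20 in fiber and 33.2% ± 0.212 in leaf, a difference of -4.29 points that became -6.85 once models over 1 FPKM per read were left out. The 1000 highest held 56.9% ± 0.955 and 60.9% ± 0.417. In both of the wider classes each leaf library lay above each fiber library, although with 2 libraries a side the smallest p of an exact two-sided permutation test is 0.33. Reaching 50% of summed FPKM took 591 and 656 models in the fiber libraries and 425 and 405 in the leaf libraries.

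A- and D-genome models were called at similar rates. Among Cotton_A models 27.8% were higher and 27.5% lower in fiber, and among Gorai models 27.0% and 27.2%. Past 5-fold the shares were 9.60% and 12.8% for Cotton_A and 8.22% and 11.4% for Gorai, so losses exceeded gains for both prefixes. Cotton_A models held 59.8% ± 1.11 of summed FPKM in fiber and 62.1% ± 0.483 in leaf (SD, n = 2). Among the 1000 highest models, 615 in fiber and 595 in leaf were A-genome models. The mix of prefixes changed with level, since Cotton_A models made up 46.4% of the class from 0.5 to 1 FPKM and 60.2% of the class at 100 or more. In that highest class 48.4% of Gorai models were higher and 38.4% lower, against 42.8% and 33.9% of Cotton_A models. The prefixes differ in how many models are known to be worth over 1 FPKM per read (4.88% of tested Cotton_A and 0.387% of tested Gorai models). Without these models, 28.3% of Cotton_A and 27.1% of Gorai models were higher over all levels, while a pseudocount of 0.1 turned the order to 30.2% and 31.0%.

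Gorai identifiers carry a chromosome number, which allowed the calls to be laid out over the 13 chromosomes. The share of tested models called higher ran from 25.0% on chromosome 6 to 29.5% on chromosome 7, and the share called lower from 25.2% on chromosome 4 to 29.6% on chromosome 12. Past 5-fold, models lower in fiber outnumbered models higher on 13 of 13 chromosomes. Cotton_A identifiers carry no chromosome number and were not laid out.

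Summed expression was more uneven. Chromosome 1 held 10.6% ± 0.0368 of the summed FPKM of Gorai models in leaf and 5.18% ± 0.0142 in fiber (SD, n = 2), a difference of -5.39 percentage points. A single model, Gorai.001G201800 described above, made up 2.82% of Gorai FPKM in leaf. Without the 193 models among the 100 highest of either tissue, of which 65 were Gorai models, chromosome 1 held 8.11% ± 0.0185 in leaf and 6.54% ± 0.00259 in fiber, a difference of -1.57 points. Chromosome 10 was lower in fiber with and without these models, at 6.56% in leaf and 5.19% in fiber over all models and at 6.18% and 5.16% without the highest. Chromosomes 4, 6, 7, 8 and 12 were higher in fiber both ways. Chromosome 12 went from 4.42% ± 0.0364 in leaf to 5.91% ± 0.00198 in fiber, and from 4.79% to 5.70% without the highest models. The direction turned with this choice on chromosomes 2, 3, 5, 9 and 13, although on chromosome 13 the difference over all models was only -0.0441 points. On chromosome 11 the difference without the highest models was -0.0316 points, within the leaf SD of 0.0515. Since the shares of all chromosomes add up to the whole in each library, a fall on 1 chromosome raises the shares of others. Chromosome 9 went from 13.8% in leaf and 14.7% in fiber over all models to 13.1% in leaf and 11.8% in fiber without the highest. Chromosome 11, which carries Gorai.011G128500 (2.25% of Gorai FPKM in fiber), went from 8.73% in leaf to 9.68% in fiber over all models and held 6.45% and 6.42% without them.

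**Figure D5:**
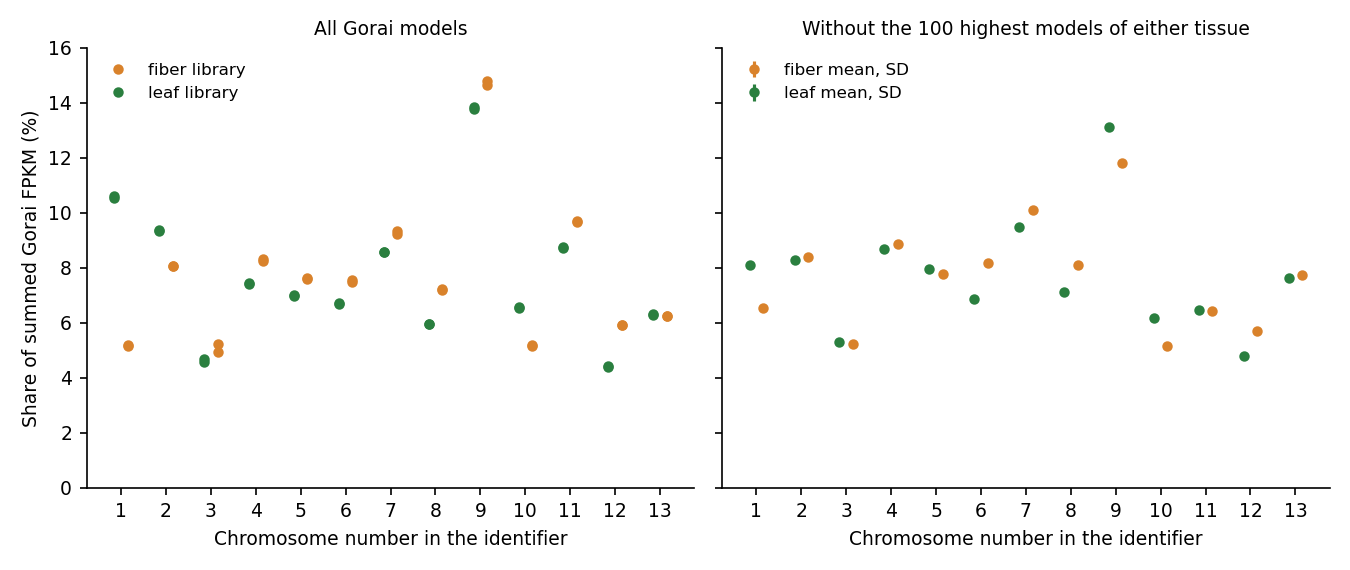
Share of summed Gorai FPKM (%, y axis) by the chromosome number in the identifier (x axis) for leaf (green) and fiber (orange), over all Gorai models with 1 point per library (left) and without the 100 highest models of either tissue as mean and SD of 2 libraries (right). Chromosome 1 goes from 10.6% in leaf to 5.18% in fiber on the left and from 8.11% to 6.54% on the right.

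Neighbouring Gorai models were slightly more often called in the same direction. Among 12293 pairs of tested models that follow each other in the order of the identifiers on 1 chromosome, the second model was called higher in 27.6% of all pairs, in 30.0% of the 3409 pairs whose first model was higher and in 24.9% of pairs whose first model was lower. For lower calls the shares were 26.6% of all pairs, 30.5% of the 3302 pairs whose first model was lower and 24.1% of pairs whose first model was higher. Runs were short. The longest run of models higher in fiber held 5 models on chromosome 2, with fiber means from 35.7 to 735 FPKM and leaf means from 6.07 to 185 FPKM. The longest run of models lower in fiber held 7 models on chromosome 11, with leaf means from 1.73 to 23.7 FPKM and fiber means from 0 to 0.468 FPKM. These runs were picked for their calls and are a description.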

How the data were processed

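The authors deposited 1 table of FPKM values with a column per library and no pooled columns. As the methods of the study state, TopHat aligned the stranded reads and Cufflinks estimated abundance from uniquely mapped ones, so models with a near-identical copy in the other subgenome can lose reads. Both came with versions not given in the sources used here. The methods name the TM-1 genome as the mapping reference, whereas the table's identifiers are not TM-1 gene identifiers, so it is unsure which annotation the values and prefixes refer to. FPKM values were not counts, so log2(FPKM + 1) was tested with limma 3.58.1 in R 4.3.3, as 1 model over the 6 libraries with the contrast fiber minus leaf, a variance trend and robust moderation. The scale compresses the fold of low models. Called meant an adjusted p under 0.01 and over 2-fold, over 2 replicates per tissue. Tissue and replicate came from the sample titles.

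Reads were recovered from whole-number ratios (within 0.05 of a read) for 26052 of 39926 tested models, and 289 models with under 0.005 FPKM per read were set aside, a limit chosen after the values had been seen. The relative depths were set beforehand, from the most frequent ratio between libraries among values under 1 FPKM. They entered the recovery, so the recovered reads are no check of them. The reads gave the read numbers of switched models and the mark of over 1 FPKM per read. That mark limited the choice of named models and set the alternative without such models. The reads did not enter the limma test of the main result.

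Named models were, for each prefix and direction, the called model with the highest mean in its higher tissue, if not known to be worth over 1 FPKM per read. Members, lists and alternatives were chosen with earlier results of these data known. On simulated data the limma step recovered 171 of 200 changed models. The other models of 39926 were left unchanged and the noise was normal. The changes were of 1 fixed size past 5-fold, in models above the lowest levels. The real data hold far more and smaller changes, so this share is not the sensitivity of the calls above.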

Additional observations from a re-analysis of the deposited data

How the results depend on the processing

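Of 155 alternative values, 136 were labelled the same, 18 moved and 1 reversed, and 56 of 56 values of the named models stayed. That label was wide for the switch counts. Both 1380 against 951 models switched on and 2546 against 1790 switched off fell under it, each with 1 library left out. No model called in 1 direction was called in the other under any scaling, pseudocount, filter or left-out library. A pseudocount of 0.1 gave 6108 models over 5-fold higher and 8354 lower. Requiring 5 FPKM left 324 models switched on and 624 switched off. The models shared by fiber and leaf were 0 of the 10 highest, 4 of the 50, 19 of the 200 and 244 of the 1000. The share of summed FPKM held by the highest models, fiber minus leaf, was 0.486 points for the 10 highest, which reverses the -4.29 points of the 100 highest, and -6.85 points for the 100 highest with models over 1 FPKM per read left out. The share of Cotton_A models called higher (27.8%) was 30.3% under quantile normalization, 25.8% under median-of-ratios scaling and 29.6% with a minimum of 1 FPKM. Some alternatives were chosen after seeing the data. Among these, the share of models switched on with at least 1 FPKM in ovule (29.4%) was 35.5% when on meant 5 FPKM and 25.8% with models over 1 FPKM per read left out. The chromosome 1 difference was -1.57 points without the highest models. The share called higher in the highest class minus that in the lowest (32.7 points) was 21.2 under quantile normalization, 29.9 under median-of-ratios scaling and 24.1 with a pseudocount of 0.1.

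Leaving out 1 library at a time gave 10481 to 10659 models higher, 10420 to 10620 lower, 3524 to 3624 over 5-fold higher, 4793 to 4914 over 5-fold lower, 1035 to 1380 switched on, 1937 to 2546 switched off, 7 to 8 shared models and -5.14 to -3.44 points, the lone library of a tissue being assumed to vary like the others. A left-out library removes 1 condition of the switch rule, so those switch counts lie above the full counts of 951 and 1790. They are no range around them. The rule of over 2-fold with an unadjusted p from a per-model analysis of variance gave 8077 higher and 8127 lower. Same-numbered fiber and leaf libraries did not deviate together (r = -0.06 across models), and a replicate block gave 10882 higher and 10905 lower. Without read totals, the depth behind a value of 0 is unknown.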
